A study of Mus musculus with 10 samples.

Results

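The 8 Schwann cell and myelin genes described here, Sox10, Egr2, Pmp22, Mbp, Ncmap, Mag, Prx and S100b, were read in the gastrocnemius of 10 smoke-exposed mice. They were taken by symbol from the 49315 genes listed, through their Ensembl identifiers, and all 8 were among the 14714 genes that passed the filter on low counts. They were chosen by the very contrast between genotypes, since a list of nerve genes had come out lower in AHRmko muscle in an earlier analysis of these counts. Differences between the genotypes in these genes are therefore given as a description, and counts of the 8 genes past a threshold stand beside the share of all genes only to describe them. How the genes moved together from mouse to mouse within a genotype was not used in that choice. It is not independent of the choice, however, since the values of the same mice enter both.

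The calf muscles came from 5 AHRfl and 5 AHRmko male mice on a C57BL6J background. AHRfl mice carried the floxed aryl hydrocarbon receptor gene without Cre, and AHRmko mice had lost the receptor from skeletal muscle after tamoxifen switched on a Cre recombinase (HSA-MCM) driven by the human skeletal actin promoter. That promoter is a muscle fibre promoter, so the deletion was aimed at muscle fibres and not at Schwann cells. All 10 mice had breathed cigarette smoke for 16 weeks, in 2 sessions of 1 h a day on 5 days a week at 220 ± 80 mg/m3, and by the labels RNA was taken 72 h after the last session. The labels put the start of smoke 4 weeks after the last tamoxifen injection, which they name for AHRmko mice only, and they give no age. The study's main methods give another interval between tamoxifen and smoke, and its results section gives a range of hours for the harvest. Air-exposed muscle was not analysed here, so that no value below bears on smoke itself.

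Schwann cells are the glia of peripheral nerve. A myelinating Schwann cell wraps its membrane around 1 stretch of axon, and the compacted wraps form the myelin sheath that speeds conduction to and from muscle. The transcription factors Sox10 and Egr2 (also called Krox20) switch on the genes for the proteins of the sheath. A muscle homogenate holds nerve branches and muscle spindles, with their Schwann cells, beside muscle fibres and other cells, and some of these 8 genes, such as Pmp22 and Egr2, are also transcribed outside nerve. In such bulk RNA fewer Schwann cells and less RNA per Schwann cell cannot be told apart.

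Libraries held 30393035 to 36500548 counted reads in AHRfl mice and 35038167 to 37954388 in AHRmko mice, and no pair of the 10 had identical counts. Ahr, the targeted gene, had 43 to 110 counts in AHRfl mice and 31 to 80 in AHRmko mice, a log2 fold change of -0.35 (95% interval -0.90 to 0.21) that did not pass the test (edgeR quasi-likelihood test, adjusted p = 0.844). The labels were visible instead in Esr1, the receptor whose ligand-binding part is fused to the Cre, with 544 to 658 counts in AHRfl mice and 9770 to 24975 in AHRmko mice. Xist, a transcript of female cells, had 44 to 75 counts in 5 of these male libraries (AHRfl 11, 15 and 33, AHRmko 9 and 22) and at most 3 in the other 5, while the Y-linked Ddx3y had 1852 to 2723 in all 10. Prx, a protein of peripheral and not of central myelin, had 54 to 323 counts. The oligodendrocyte genes Mobp and Olig2 were at 0 in every library, which still allows an expected count of up to 3 in each. Mog had at most 4 counts, and Opalin and Ermn at most 1. The summed level of 5 oligodendrocyte genes stayed at or below 0.115 CPM (normalized read counts, scaled to the size of each library) in all 10 mice.

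The promoters of 3 genes are printed first, because the genes they belong to behaved differently below: Egr2, whose level departed from the others in 1 mouse, and Prx and Mag, which followed them. Each run holds 250 bases before and 50 after an annotated start in RefSeq (GRCm38.p6), written 5′ to 3′ on the gene's strand, with the matched letters in capitals. The Egr2 window lies at chr10:67537619-67537918 (plus strand, 1 of 5 annotated starts), the Prx window at chr7:27499074-27499373 (plus strand) and the Mag window at chr7:30914814-30915113 (minus strand, 1 of 3 starts).
Egr2: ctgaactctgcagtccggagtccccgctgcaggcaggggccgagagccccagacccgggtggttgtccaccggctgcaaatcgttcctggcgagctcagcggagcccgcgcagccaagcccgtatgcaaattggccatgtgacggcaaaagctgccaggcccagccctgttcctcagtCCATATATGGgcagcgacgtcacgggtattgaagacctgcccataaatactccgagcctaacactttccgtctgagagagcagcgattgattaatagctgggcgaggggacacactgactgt
Prx: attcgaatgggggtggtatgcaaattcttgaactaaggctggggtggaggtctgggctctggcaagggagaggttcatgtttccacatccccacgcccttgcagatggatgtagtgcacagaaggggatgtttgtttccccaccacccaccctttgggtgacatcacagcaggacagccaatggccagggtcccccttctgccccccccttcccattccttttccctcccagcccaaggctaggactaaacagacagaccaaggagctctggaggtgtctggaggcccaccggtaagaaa
Mag: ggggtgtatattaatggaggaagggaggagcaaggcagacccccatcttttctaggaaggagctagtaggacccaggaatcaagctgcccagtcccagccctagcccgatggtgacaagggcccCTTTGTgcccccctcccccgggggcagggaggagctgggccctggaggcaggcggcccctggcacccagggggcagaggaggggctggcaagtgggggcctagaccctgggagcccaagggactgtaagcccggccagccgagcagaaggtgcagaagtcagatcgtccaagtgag
The capitals in the Egr2 promoter, 72 to 63 bases before the start, mark a CArG box, the 10-letter element of CC, then 6 letters that are each A or T, then GG, which is bound by serum response factor in many genes that respond within minutes to a stimulus. A CArG box stood in the windows of 1.81% of the 27025 genes, in 1 of the 6 Schwann cell and myelin genes that had a window, in 0 of 12 other myelin genes and in 0 of 5 immediate early genes. Only 5 of the 8 immediate early genes listed had a window, and a box more than 250 bases before the start would not be seen. In the Mag promoter the capitals are acaaag, letters that SOX proteins bind, read on the opposite strand, and 21% of all genes held these letters. The other letters searched on both strands were acaatg (a second SOX form, 14.3% of all genes), gcgtgggcg (an EGR form, 0.707%) and tataaa (15.7%), and none of the 6 genes held them. Prx, Pmp22, S100b and Ncmap held none of the 5 sets of letters, which says only that the letters are not in these windows. No window was at hand for Mbp and Sox10. A match is a description of the sequence and not a binding site.

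Sox10, the factor that Schwann cells need at every stage of their life, lies at chr15:79154908-79165240 (minus strand). Its level was 2.44, 1.73, 0.903, 0.601 and 0.927 CPM in AHRfl mice 11, 12, 13, 15 and 33. In AHRmko mice 8, 9, 19, 22 and 34 it was 1.65, 1.52, 0.428, 1.21 and 0.449 CPM. AHRmko 19 and 34 were below every AHRfl mouse, and the other 3 AHRmko mice fell inside the AHRfl range. The log2 fold change of AHRmko over AHRfl was -0.32 (SE 0.459, 95% interval -1.32 to 0.68).

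Egr2, which drives myelination once an axon has been chosen, lies at chr10:67535475-67542188 (plus strand). AHRfl mice 11, 12, 13, 15 and 33 had 1.08, 1.99, 0.874, 0.372 and 0.711 CPM of Egr2. The AHRmko mice 8, 9, 19, 22 and 34 had 1.10, 0.651, 0.514, 0.999 and 1.44 CPM. All 5 AHRmko mice lay inside the AHRfl range, and the AHRmko mouse with the highest Egr2 was number 34, the mouse that was lowest in most of the other genes. Its log2 fold change was -0.10 (SE 0.399, 95% interval -0.96 to 0.76).

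Pmp22, a membrane protein of compact myelin whose gene dosage underlies common inherited neuropathies, lies at chr11:63128982-63159547 (plus strand). It stood at 29.5, 23.0, 22.8, 21.3 and 24.5 CPM in AHRfl mice 11, 12, 13, 15 and 33. Levels of 29.9, 22, 16.6, 23.0 and 15.2 CPM were found in AHRmko mice 8, 9, 19, 22 and 34. AHRmko 8 was the highest of all 10 and AHRmko 19 and 34 the lowest. The log2 fold change was -0.18 (SE 0.168, 95% interval -0.55 to 0.19), the narrowest interval of the 8 genes.

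Mbp, which glues the inner faces of the myelin membrane together, had 24.2, 23.8, 19.5, 12.7 and 14.5 CPM in AHRfl mice 11, 12, 13, 15 and 33. It had 26.1, 23.5, 8.79, 15.4 and 7.68 CPM in AHRmko mice 8, 9, 19, 22 and 34. The AHRmko group thus held both the highest value and the 2 lowest values of the study. The log2 fold change was -0.21 (SE 0.372, 95% interval -1.06 to 0.63).

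Ncmap, a membrane protein of the noncompacted parts of the sheath, lies at chr4:135369576-135398227 (minus strand) and had the log2 fold change farthest from 0 of the 8. Its AHRfl levels were 1.88, 1.61, 1.27, 0.515 and 0.587 CPM in mice 11, 12, 13, 15 and 33. The AHRmko levels were 1.02, 0.841, 0.285, 0.71 and 0.269 CPM in mice 8, 9, 19, 22 and 34. Of the AHRmko mice, 3 fell within the AHRfl range and the other two, 19 and 34, below it. The AHRmko mean was 0.538 of the AHRfl mean on the fitted scale, a log2 fold change of -0.89 with an interval that reached above 0 (SE 0.444, 95% interval -1.86 to 0.07).

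Mag, an adhesion protein on the face of the sheath that touches the axon, lies at chr7:30899176-30914873 (minus strand) and was the least abundant, with 6 to 33 counts a library. It measured 0.853, 0.865, 0.508, 0.229 and 0.340 CPM in AHRfl mice 11, 12, 13, 15 and 33. In AHRmko mice 8, 9, 19, 22 and 34 it measured 0.552, 0.895, 0.285, 0.736 and 0.179 CPM. The highest and the lowest mouse both belonged to AHRmko. Its log2 fold change was close to 0 but wide in error (-0.07, SE 0.458, 95% interval -1.06 to 0.92).

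Prx (periaxin), which ties the outer membrane of the sheath to the surrounding matrix and is mutated in an inherited neuropathy, lies at chr7:27499324-27520214 (plus strand). AHRfl mice 11, 12, 13, 15 and 33 gave 8.13, 7.09, 7.81, 4.03 and 5.04 CPM. For AHRmko mice 8, 9, 19, 22 and 34 the levels were 8.48, 7.27, 2.40, 4.63 and 1.61 CPM. AHRmko 8 again exceeded every AHRfl mouse, and 19 and 34 were below all of them. Its log2 fold change was -0.39 (SE 0.426, 95% interval -1.34 to 0.56).

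S100b, a calcium-binding protein long used as a Schwann cell marker, lies at chr10:76253853-76261159 (plus strand). AHRfl mice 11, 12, 13, 15 and 33 carried 1.85, 1.82, 1.75, 1.00 and 1.89 CPM. AHRmko mice 8, 9, 19, 22 and 34 carried 1.71, 1.49, 1.23, 1.74 and 0.628 CPM. One AHRfl mouse, number 15, stood apart from the other 4 of its group, and AHRmko 34 was the lowest of the 10. The log2 fold change was -0.28 (SE 0.267, 95% interval -0.86 to 0.29). The downstream end of S100b overlaps Dip2a on the opposite strand (99 to 244 counts a library), and Prx overlaps the antisense gene Gm15541 (1 to 12 counts). The strand setting of the counting was not given, so reads of these overlapping genes cannot be told apart.

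**Figure D1:**
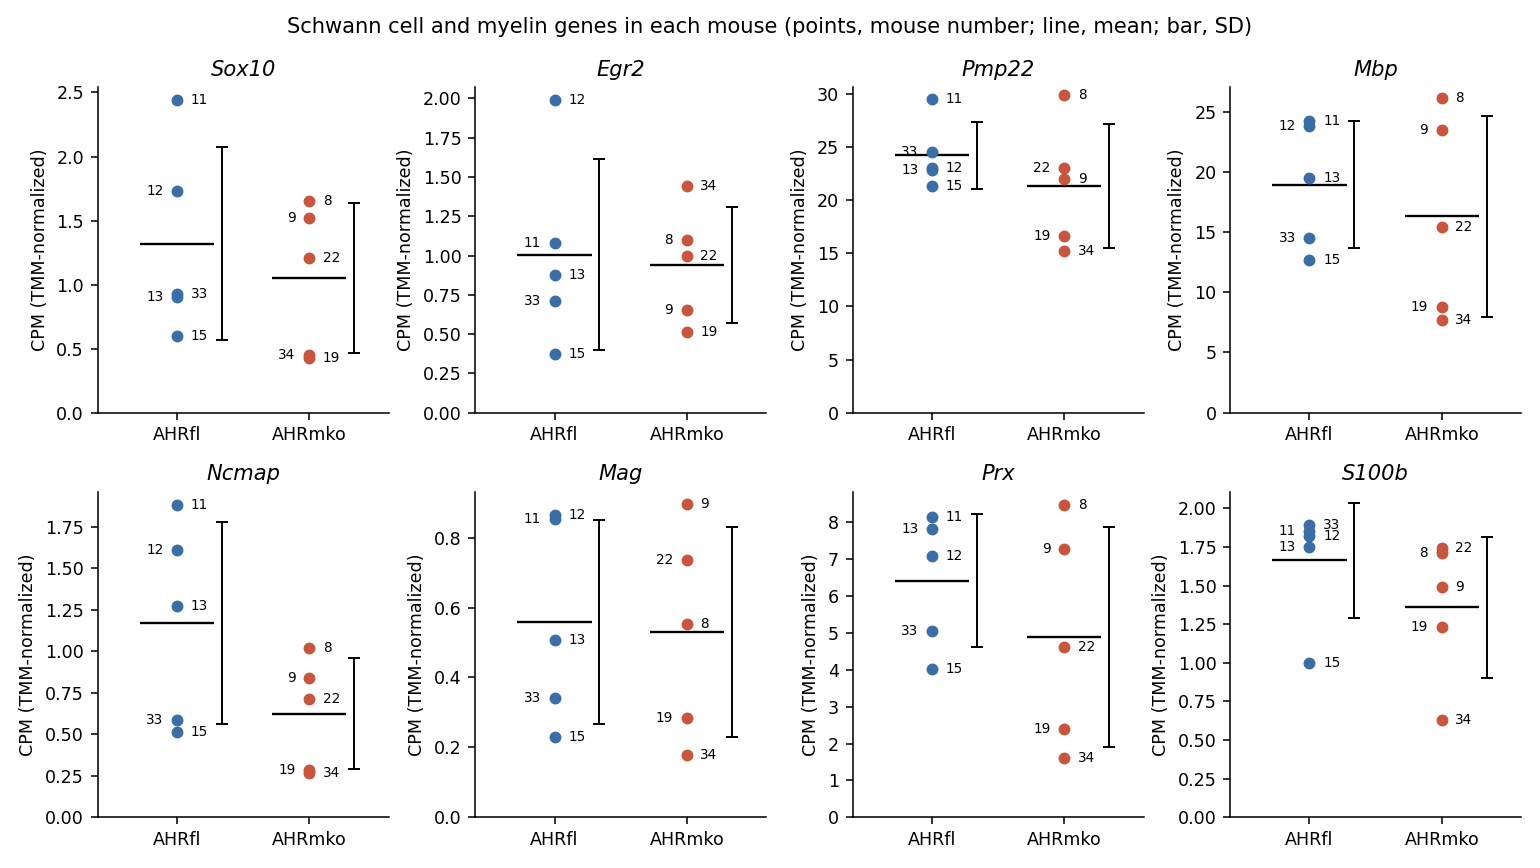
Level of each of the 8 Schwann cell and myelin genes (CPM, vertical axes from 0) in the 5 AHRfl and 5 AHRmko mice, with animal numbers beside the points, the mean as a line and the SD as a bar. The groups overlap for all 8 genes, and AHRmko 19 and 34 sit at the bottom of the AHRmko group for every gene but Egr2.

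Read as a set, the 8 genes had lower fitted levels in AHRmko than in AHRfl muscle without 1 of them separating the genotypes. The fitted difference was below 0 for 8 of the 8 (48.5% of all genes tested), with a median log2 fold change of -0.249 against 0.00565 over all genes tested. Left out in turn, single mice put that median between -0.41 (without AHRmko 8) and -0.11 (without AHRfl 11), with -0.11 without AHRmko 19 and -0.12 without AHRmko 34. The adjusted threshold of 0.05 was met by 0 of the 8 under edgeR's quasi-likelihood test (0.0068% of all genes) and by 0 under DESeq2. None had an unadjusted p under 0.05 (6.61% of all genes). In 0 of the 8 did the 5 AHRmko mice lie clear of the 5 AHRfl mice (1.4% of all genes). Nothing is read from these counts, since the contrast chose the genes. For each of the 8 the difference between the group means was smaller than the SD among the AHRfl mice.

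The direction itself rested on few mice in 3 genes. Without AHRmko 34 the log2 fold change of Mag was 0.14, without AHRfl 11 that of Sox10 was 0.02, and without AHRfl 12 that of Egr2 was 0.31. With limma-voom on all 10 mice the Egr2 value was 0.01. Single mice also moved the others, in both directions. The Mbp value was -0.45 without AHRmko 8 and -0.04 without AHRmko 34, and that of Prx was -0.69 and -0.17. Sox10 reached -0.54 without AHRmko 8. Pmp22 ran from -0.34 (without AHRmko 8) to -0.08 (without AHRmko 34), and S100b from -0.42 (without AHRfl 15) to -0.11 (without AHRmko 34). Ncmap kept a negative sign in all 10 such refits, between -1.14 and -0.66.

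**Figure D2:**
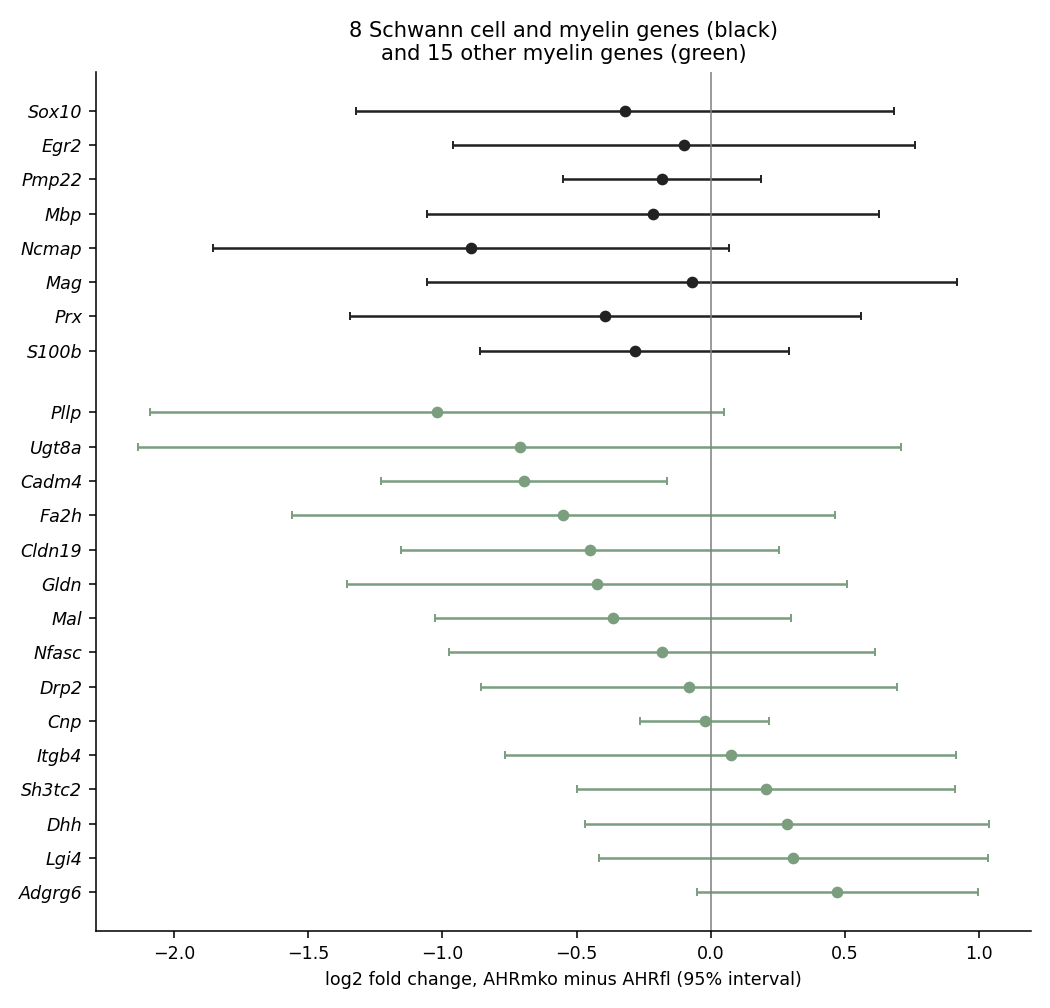
Log2 fold change of AHRmko over AHRfl with its 95% interval (edgeR fit, 5 mice a group) for the 8 Schwann cell and myelin genes (black) and for 15 other myelin genes (green). All 8 black intervals reach across 0, from Ncmap at -0.89 to Mag at -0.07, and the green points run from -1.02 to 0.47.

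Divided by exon length, the 8 genes spanned a wide range of levels. Over the 10 mice Pmp22 averaged 9.68 ± 1.99 CPM per kilobase (SD) and Mbp 2.08 ± 0.794, and each exceeded the next gene in 10 of 10 mice. S100b (1.02 ± 0.285) and Prx (1.01 ± 0.441) could not be ranked, with S100b above Prx in 4 of 10 mice. Prx in turn exceeded Ncmap (0.404 ± 0.245) in all 10. Ncmap and Sox10 (0.389 ± 0.214) could not be ranked either, and Sox10 exceeded Egr2 (0.286 ± 0.14) in 7 of 10 mice. Mag was at the bottom with 0.134 ± 0.0685 CPM per kilobase, below Egr2 in 9 of 10 mice. Exon length counts every annotated exon, so a gene with many alternative exons, such as Mbp, is placed lower on this scale.

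Individual mice differed widely in these genes. From the lowest to the highest of the 10 mice the level varied 1.97-fold for Pmp22, 3-fold for S100b, 3.39-fold for Mbp, 4.99-fold for Mag, 5.25-fold for Prx, 5.35-fold for Egr2, 5.71-fold for Sox10 and 6.97-fold for Ncmap. Within a genotype the range was narrower for some, with 3.64-fold in AHRfl and 3.81-fold in AHRmko mice for Ncmap, and 4.07-fold and 3.87-fold for Sox10. It was unequal for Prx, at 2.02-fold in AHRfl and 5.25-fold in AHRmko mice, for Mbp, at 1.91-fold and 3.39-fold, and for Pmp22, at 1.39-fold and 1.97-fold. Egr2 went the other way, at 5.35-fold in AHRfl and 2.79-fold in AHRmko mice. Among tested genes of like level, 98.6% had a smaller SD within genotypes than Mbp and 98.6% than Prx. The share was 96.6% for Sox10, 94.6% for Ncmap and 79.2% for S100b, the lowest of the 8.

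The same mice were low or high across the set. AHRfl 15 was the lowest AHRfl mouse in 8 of 8 genes, and AHRfl 11 the highest in 5. Among AHRmko mice, number 19 was 1 of the 2 lowest in 8 of 8 genes, number 34 in 7 of 8, and number 8 was the highest in 5. When each gene was put on a common scale (log2 CPM, mean 0 and SD 1 over the 10 mice) and averaged over the 8, AHRfl mice 11, 12, 13, 15 and 33 scored 1.01, 0.886, 0.312, -0.827 and -0.0802. AHRmko mice 8, 9, 19, 22 and 34 scored 0.73, 0.355, -1.17, 0.195 and -1.41. The lower mean of the AHRmko group thus came with 2 low mice in a group whose other 3 mice lay within the AHRfl range.

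With the genotype means taken away, 7 of the 8 genes rose and fell together over the 10 mice. Among Sox10, Pmp22, Mbp, Ncmap, Mag, Prx and S100b the 21 pairs had Pearson r of 0.676 to 0.979, with a median of 0.856, and the closest pair was Mbp and Prx. Against the mean of the other 7 genes, r was 0.959 for Ncmap, 0.956 for Sox10, 0.946 for Mbp, 0.908 for Prx, 0.903 for Mag, 0.816 for Pmp22 and 0.775 for S100b. For comparison, 5% of all genes tested had an r above 0.593 with the mean of the 8, and 1% above 0.773. The median over the 21 pairs stayed between 0.796 and 0.877 when each mouse was left out in turn. These correlations describe 10 libraries, share the makeup of each sample, are not independent of how the genes were chosen, and carry no p.

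Egr2 stood outside this pattern, and that rested on 1 mouse. Its r with the other 7 genes was 0.155 to 0.5 (median 0.313), and its r with their mean was 0.331. Without AHRmko 34 the median rose to 0.743. Leaving out any of the other 9 mice put it between 0.125 and 0.467. In AHRmko 34 the CPM of Egr2 was 3.2 times that of Sox10, against 0.429 to 1.2 times in the other 9 mice, the highest of these being AHRmko 19.

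Egr2 also varied with immediate early genes, the first genes that cells of many types transcribe after a stimulus, to which Egr2 itself also belongs. Over the 10 mice, genotype means removed, its r with 8 such genes was 0.467 to 0.85 (median 0.586), with Fos at 0.85, Fosb at 0.761 and Egr1 at 0.729. For the most abundant of them, Nr4a1, Junb and Atf3, it was 0.639, 0.503 and 0.467. The median for the other 7 Schwann cell and myelin genes lay between -0.256 (Pmp22) and 0.079 (Mag). No background over all genes is given for r with Egr2, so how unusual its values are cannot be told. Left out in turn, single mice put the Egr2 median between 0.451 and 0.766, and it was 0.583 without AHRmko 34. Fos was 80 CPM in AHRfl 12 and 51.3 CPM in AHRmko 34, the 2 mice with the highest Egr2, and 2.23 to 32 CPM in the other 8. None of the 8 immediate early genes passed the test between genotypes (4 lower, 4 higher, median log2 fold change -0.003). That median was -0.45 without AHRmko 34, 0.43 without AHRfl 12 and 0.44 with the slow fibre covariate. The 5 genes most like Egr2 were Nr4a2, another immediate early gene (r 0.964), and Trappc3 (0.95), Ppp1r10 (0.948), Sh3pxd2b (0.945) and Ifit1 (0.937), and none of these 5 was among the 8 immediate early genes of the list. In which cells Egr2 was transcribed was not tested.

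**Figure D3:**
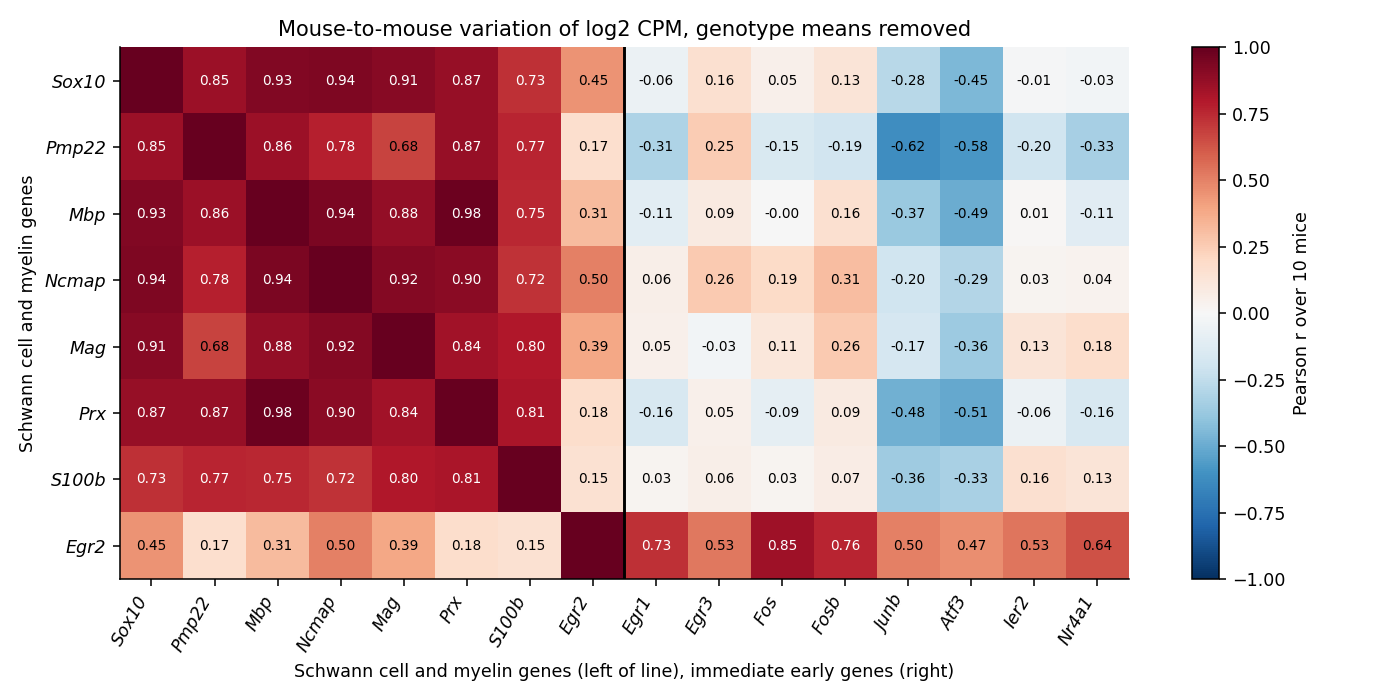
Pearson r over the 10 mice of log2 CPM, genotype means removed, between the 8 Schwann cell and myelin genes (rows) and the same genes (columns left of the line) or 8 immediate early genes (right). The 7 genes other than Egr2 reach 0.676 to 0.979 among themselves, while the Egr2 row is palest with those genes and reaches 0.85 with Fos.

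Most myelin genes outside the 8 varied with them from mouse to mouse. Of 18 read as a list, 15 were tested, and Gjb1, Pmp2 and Gal3st1 had too few counts. Their r to the mean of the 8 genes had a median of 0.764, and 12 of 15 exceeded the level that 5% of all genes exceed. Adgrg6 (r 0.263), Sh3tc2 (0.517) and Lgi4 (0.55) did not. AHRfl 15 was near average in this list. Its mean deviation of log2 CPM from the average of the 10 mice was -0.0678, against -0.566 for the 8 genes. The highest r of the list was that of Cldn19, a tight junction protein of the Schwann cell sheath. It had 2.56, 1.85, 1.92, 0.801 and 1.67 CPM in AHRfl mice 11, 12, 13, 15 and 33. In AHRmko mice 8, 9, 19, 22 and 34 Cldn19 was 1.71, 1.87, 0.856, 1.31 and 0.658 CPM. AHRmko 34, AHRfl 15 and AHRmko 19 were the 3 lowest of the 10 (log2 fold change -0.45, 95% interval -1.15 to 0.25, r 0.935). Cnp, an enzyme of noncompacted myelin, Itgb4, an integrin on the outer face of the Schwann cell, and Drp2, a partner of periaxin, also tracked the set (r 0.882, 0.764 and 0.836) at log2 fold changes of -0.02, 0.07 and -0.08. Between genotypes 10 of the 15 had lower and 5 higher fitted levels (median -0.181), none passed the adjusted test, and Cadm4, a Schwann cell adhesion protein singled out after its values were seen, was alone under an unadjusted p of 0.05 (log2 fold change -0.70, 95% interval -1.23 to -0.16). The median was 0.03 over the genes with at least 10 counts in every mouse and -0.34 with limma-voom. Leaving out single mice put it between -0.49 (without AHRmko 8) and -0.09 (without AHRmko 34). The filter on low counts was rerun each time, and without AHRmko 8 it passed 16 genes in place of 15. The genes of this myelin list may have belonged to the nerve list that prompted the choice, so their direction is no separate evidence.

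Across 12125 genes of at least 1 CPM, the 10 whose variation within genotypes was most like the mean of the 8 were Nfatc2ip (r 0.956), Smc4 (0.943), Etv1 (0.937), Prkci (0.936), Cldn19 (0.935), Gatm (0.929), Marf1 (0.925), B230206H07Rik (0.923), Cidec (0.92) and Hcn4 (0.915). Beside Cldn19 of the myelin list, Cidec is a lipid droplet protein of fat cells, Hcn4 a pacemaker channel, Smc4 a condensin subunit and Gatm an enzyme of creatine synthesis. With the mice farthest from the median, AHRmko 34 and AHRfl 15, left out, r was 0.824 to 0.963 for the 10.

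Fat cell genes moved with the Schwann cell genes. All 5 tested of 6 adipocyte markers (Cfd, Adipoq, Cidec, Plin1 and Retn; Lep had too few counts) had an r of 0.86 to 0.92 with the mean of the 8. The summed level of all 6 markers, Lep included, was 61.6, 23.5, 15.9, 10.3 and 9.83 CPM in AHRfl mice 11, 12, 13, 15 and 33. It was 40.0, 59.7, 9.30, 25.9 and 7.36 CPM in AHRmko mice 8, 9, 19, 22 and 34. The adipocyte genes and the 8 genes were thus lowest in AHRmko 34 and low in AHRmko 19 and AHRfl 15, and the adipocyte sum was as low in AHRfl 33. Between genotypes 4 of the 5 adipocyte markers had higher and 1 lower fitted levels, and none passed the test (median log2 fold change 0.326). That median was -0.08 without AHRmko 9. It was 1.07 without AHRfl 11, a refit in which all 6 markers passed the rerun filter on low counts. How much of the variation in the myelin genes goes with the amount of connective or fatty tissue in each sample was not tested.

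**Figure D4:**
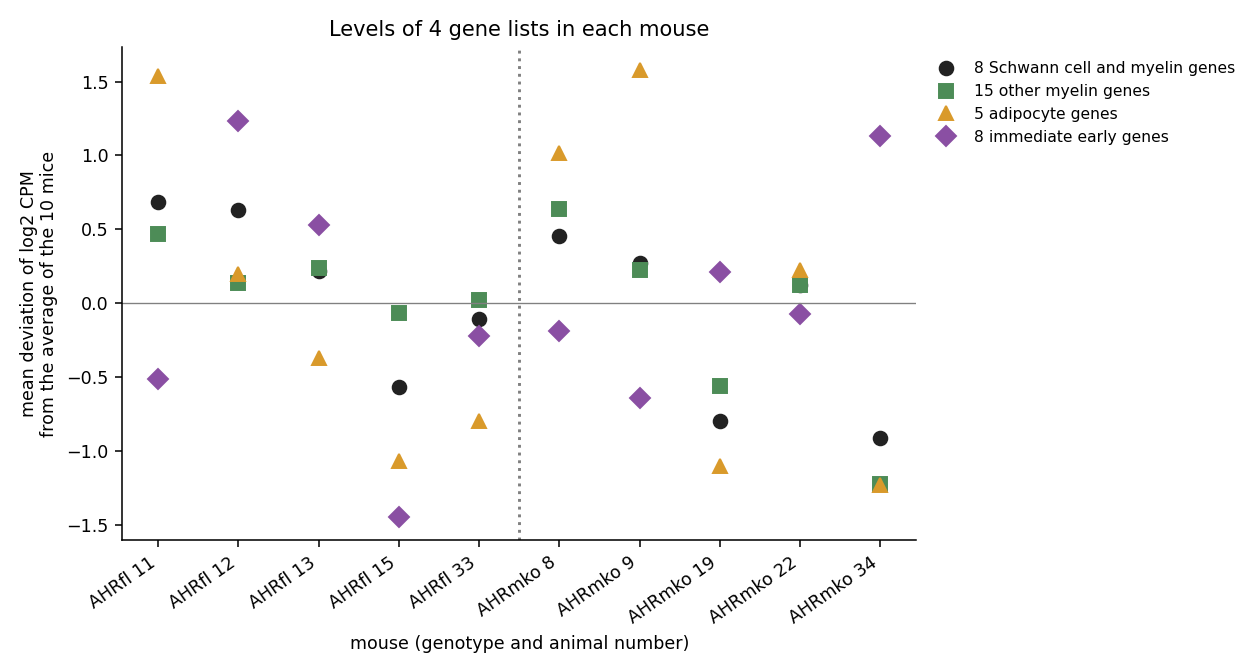
Mean deviation of log2 CPM from the average of the 10 mice (vertical axis) for the 8 Schwann cell and myelin genes, 15 other myelin genes, 5 adipocyte genes and 8 immediate early genes, 1 symbol a list in each mouse. In AHRmko 34 the first 3 lists lie at -0.914, -1.22 and -1.23 while the immediate early genes lie at 1.13.

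Other lists of the nerve had lower medians of r. Of 15 regulators of Schwann cells, 12 were tested, with a median r of 0.295 to the mean of the 8, and 4 exceeded the 5% level. Those highest in muscle, Jun, Yap1 and Wwtr1, are made by many cells (log2 fold changes -0.05, -0.07 and -0.08). Notch1 alone was under an unadjusted p of 0.05 (log2 fold change 0.48, 95% interval 0.04 to 0.91), and none passed the adjusted test. Of 16 genes of nonmyelinating and repair Schwann cells, 8 were tested, with a median r of 0.469, and 3 exceeded the 5% level. Of these 8 genes 4 were lower and 4 higher in AHRmko, none called (log2 fold changes of 0.03 for Ncam1, 0.01 for Scn7a and 0.35 for L1cam). Of 12 genes of the nerve's connective sheaths 10 were tested, with a median r of 0.207, and 5 were lower and 5 higher, none called (log2 fold changes of -0.04 for Ntn4, 0.12 for Slc2a1 and 0.31 for Sox9). Within this list Etv1, already named among the 10 most like the set, had an r of 0.937 and Osr2 an r of 0.693.

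Axonal genes, whose messenger RNA is kept largely in neuron cell bodies outside the muscle, had few reads with 2 exceptions. Of 10 axonal genes Uchl1, a neuronal enzyme (163 to 482 counts), and Stmn2, a growth cone protein (59 to 155 counts), could be tested, and Nefl, Nefm, Nefh, Prph, Chat, Slc18a3, Snap25 and Syt1 had at most 14 counts in any library. The log2 fold change of Uchl1 was -0.63 (95% interval -1.05 to -0.20) and its adjusted p in edgeR's quasi-likelihood test was 0.625. That of Stmn2 was -0.09. The median of the pair was -0.356. When single mice were left out the filter on low counts was rerun, and 3 axonal genes passed it without AHRfl 11, for example. The medians of those refits are therefore not values of this pair. Neither Uchl1 nor Stmn2 followed the 8 genes (r 0.173 and -0.154).

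Genes that muscle fibres raise when the nerve is lost were examined as a list. Of 13 genes 11 were tested, with 7 higher and 4 lower in AHRmko (median log2 fold change 0.217) and none past the adjusted test. Leaving out AHRfl 11, AHRfl 12, AHRmko 19, AHRmko 22 or AHRmko 34 put the median between 0.05 and 0.12. The filter on low counts was rerun each time, and 12 genes in place of 11 were tested without AHRfl 11 and without AHRfl 12. Those 2 medians thus changed both the mice and the genes. Chrna1, an acetylcholine receptor subunit, was alone under an unadjusted p of 0.05 (0.22, 95% interval 0.05 to 0.39). The median r of the list to the mean of the 8 was -0.209. Chrna1 had an r of -0.0348, and the lowest was that of Gadd45a, a stress gene that rises steeply after denervation (-0.64). Gadd45a stood at 74.1 and 80.4 CPM in AHRmko 19 and 34 and at 24.5 to 54.4 CPM in the other 8 mice. Of the other genes tested, Runx1 and Hdac4 were also highest in these 2 mice. AHRmko 34 alone was highest for Musk and Myog, and neither mouse was for Chrna1, Chrnd, Myh3, Myh8, Fbxo32 and Trim63. The immediate early gene Junb was likewise high in AHRmko 19 and 34 (78.5 and 98.8 CPM), and highest in AHRfl 12 (127 CPM). Whether any fibre had lost its nerve was not tested. The muscle ubiquitin ligases Fbxo32 and Trim63 had log2 fold changes of -0.23 and -0.40 and r of 0.18 and -0.225.

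Lists for the other contents of the sample were read the same way. For 6 endothelial genes the median r to the mean of the 8 was 0.39, with Pecam1 at 0.249, Cdh5 at 0.384 and Tie1 at 0.624. Of the vessel wall, 6 mural cell genes had a median of 0.25 (Rgs5 0.362, Acta2 0.588, Myh11 0.545). The 6 fibroblast genes were at 0.000922 (Dcn 0.301, Col1a1 -0.0406, Col3a1 0.000536), and 5 tendon genes at 0.139 (Fmod 0.251, Comp 0.139, Tnmd 0.276). Negative medians were found for 6 macrophage genes (-0.243, with C1qa at -0.322, C1qb at -0.287 and Csf1r at -0.136) and for 3 satellite cell genes (-0.287, with Pax7 at -0.0018, Myf5 at -0.332 and Chrdl2 at -0.287). Myofibre genes, 6 in all, had a median of -0.0656 (Myh4 0.151, Ckm -0.239, Tnnt3 -0.122). Cholesterol synthesis, a pathway that myelination draws on, had a median of 0.0884 over 16 genes (Fdft1 0.0265, Hmgcs1 0.345, Sc5d -0.366). The 2 tested pigment cell genes, Dct and Pmel, were at -0.369 and -0.686. None of these genes passed the adjusted test, and Scx, a tendon factor (log2 fold change -0.65), was alone under an unadjusted p of 0.05. Slow fibre genes, which mark the deep part of the gastrocnemius, differed widely between samples, with summed levels of 21.1 to 1450 CPM in AHRfl mice and 151 to 1670 CPM in AHRmko mice (median r -0.263, median log2 fold change 0.414). Their most abundant genes, Myh7, Myl3 and Myl2, had r of -0.311, -0.147 and -0.165. One mouse turned the sign of the median fold change, which was -0.14 without AHRmko 8 and 1.33 without AHRfl 15. With the mean of these slow fibre genes as a covariate the log2 fold change was 0.21 for Mag and 0.24 for Egr2, and the other 6 genes remained below 0.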

How the data were processed

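RNA-seq of gastrocnemius muscle was examined in 5 AHRfl and 5 AHRmko mice. The authors isolated poly(A) RNA, sequenced paired reads, trimmed (Trimmomatic 0.36) and aligned them (STAR 2.5.2b, GRCm38), and used featureCounts for unique exon reads per gene. The deposited values are raw counts, 1 column a mouse. The annotation release and strand setting were not given in the sources used here. Gene names and coordinates came from GENCODE M21 (49056 of 49315 identifiers matched, 99.47%), and promoters from RefSeq.

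Genes with too few reads were dropped (filterByExpr, minimum count 10, minimum total 15), libraries were scaled by TMM, and genotypes were compared with edgeR 4.0.16 (quasi-likelihood test, robust) in R 4.3.3, with Benjamini-Hochberg adjustment over 14714 genes and a threshold of 0.05. Levels are TMM-normalized CPM, and correlations used log2 CPM (prior count 2) with genotype means removed. DESeq2 1.42.0, limma 3.58.1 (voom), other scaling and filters, a slow fibre covariate and leaving out each mouse were tried. The scripts were tested on simulated data. Each column is 1 animal, and the 95% intervals come from the spread between mice in the fit.

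The 8 genes and all lists were chosen with earlier results of these data known, and the letters searched in promoters after the sequences and the pattern of Egr2 had been seen. Outside the 8 genes, those named were the 3 most abundant of each list, the 10 most like the set, and any called or not overlapping. Others named (Cadm4, Adgrg6, Sh3tc2, Lgi4, Notch1, Chrna1, Chrnd, Musk, Myog, Runx1, Hdac4, Myh3, Myh8, Scx, Fos, Fosb, Egr1, Plin1, Retn, Osr2, Nr4a2 and the other 4 most like Egr2, Esr1, Xist, Ddx3y and genes with too few counts) were singled out after their values were seen. Of the myelin list, 2 genes are not reported here and were left out of its counts and of the ranking by likeness.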

Additional observations from a re-analysis of the deposited data

Results flagged for a closer look

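S100b in AHRfl 15 (1.00 CPM) stood apart from the other 4 AHRfl mice (1.75 to 1.89 CPM). On the log2 CPM scale the gap to its nearest neighbour was 0.88 of the group's range, above Dixon's critical value of 0.71 for 5 samples. Of 18 groups of 5 mice examined in this way 1 was found, and 0.9 would be found by chance.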

How the results depend on the processing

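No paired analysis was possible because the animal numbers of the AHRfl and AHRmko mice do not repeat between groups. Over all genes, the adjusted threshold of 0.05 was passed by 1 in the edgeR fit, 21 with DESeq2, 5 without a filter on low counts, 2 with the slow fibre covariate, and 1 to 6 when single mice were left out, with 6 without AHRmko 34. The median log2 fold change of the axonal list was -0.952 with DESeq2 and -0.842 without the filter, against -0.356, since both settings keep all 10 genes in place of 2. It ran from -0.47 to -0.01 when single mice were left out, with -0.01 without AHRmko 34. The filter was rerun in each of these refits, and 3 axonal genes were tested without AHRfl 11, for example. A list's median could therefore move with the mouse left out, with the genes tested, or with both. After the data had been seen, correlations were also recomputed without each mouse. The median r of Egr2 with the other 7 genes then ran from 0.125 (without AHRfl 15) to 0.743 (without AHRmko 34), with 0.152 without AHRmko 19 and 0.467 without AHRmko 9. The median r of Egr2 with the immediate early genes ran from 0.451 to 0.766 (without AHRfl 11). The number of the 8 genes with a lower fitted level in AHRmko was 6 of the 6 tested when 10 counts were asked of every mouse and 6 to 8 when single mice were left out. Mag (6 to 33 counts a library), Ncmap (9 to 66) and Egr2 (13 to 69) are limited by depth.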
